A study of Mus musculus with 12 samples.

Results

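Serpins are a family of protease inhibitors that act as bait: a flexible reactive centre loop is cut by the target protease, and the serpin then refolds and holds the enzyme in a covalent complex. The liver secretes many of the serpins of blood plasma, among them antitrypsin (Serpina1), antithrombin (Serpinc1), heparin cofactor II (Serpind1), alpha-2-antiplasmin (Serpinf2) and the C1 inhibitor (Serping1), and a few family members have lost inhibition and carry hormones or fold collagen instead. Family members are sorted into clades by sequence, given by the letter after "Serpin". Mice carry expanded sets of near-identical genes where humans have a single one, above all in clades a and b.

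The serpin genes were taken here as all protein-coding genes whose symbol is Serpin followed by a clade letter from a to i and a digit. This gave 61 genes of the 55401 in the count table, 24 in clade a, 26 in clade b, 3 in clade e, 2 each in clades f and i, and 1 each in clades c, d, g and h. On the mouse genome 23 of the clade a genes lie on chromosome 12, with Serpina7 alone on the X chromosome. The other chromosomes rich in serpins were 13, with 15 clade b genes, and 1, with 13 genes.

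RNA was sequenced from the livers of 12 female C57BL/6J mice aged 15 weeks. In 6 iTgMir483 mice a transgene holding 1 copy of Mir483 stood at the Rosa26 locus under Tet-off control, released by removal of a Neo cassette with CMV-Cre, which acts in all tissues, so that the microRNA was made outside the liver too. Doxycycline held the transgene silent during gestation, and it was expressed from birth to the time of sampling. The 6 control mice were littermates from the same cross of CMV-Cre and Mir483 transgenic animals, and their exact alleles are not given in the labels. Libraries held from 12244123 to 30431286 counts, and the labels name the same sequencing pool for all 12. Mir483 had 0 counts in every control library and from 318 to 761 counts in the iTgMir483 libraries, so each library matched its label. Albumin (Alb), the defining hepatocyte product, stood between 35996 and 135525 CPM (counts scaled to a common library size) in all 12 libraries. Control replicate 1 stood apart at Mup20, a male-biased urinary protein gene, with 437 CPM, and iTgMir483 replicate 1 had 80.1 CPM, against 5.06 to 35.2 CPM elsewhere.

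Of the 61 serpin genes, 28 had enough counts to be tested, 15 in clade a and 5 in clade b among them. A gene was called changed where the groups differed by more than 1.5-fold and edgeR's quasi-likelihood F-test, adjusted over the 13205 genes tested, gave a Benjamini-Hochberg p under 0.05. By this rule 6 serpin genes changed. In iTgMir483 livers 3 rose, Serpina7 and Serpinh1 among them, and 3 fell, Serpina1e, Serpina3k and Serpine2. Across all genes tested 11.1% changed, 8.41% upward and 2.73% downward. The median log2 fold change of the 28 serpin genes was -0.029, against 0.0058 over all genes tested, with 13 serpin genes above 0 and 15 below. With the adjusted p alone 9 serpin genes passed, where 18.6% of all genes did. The 3 genes that this added, Serpina1d, Serpinf1 and Serpinb6a, moved by less than 1.5-fold. All 6 livers of one group lay beyond all 6 of the other for 2 genes that were higher, Serpina7 and Serpinh1, and for 4 that were lower, Serpina1b, Serpina1d, Serpina3k and Serpinf1. Over all genes this was so for 5.09% upward and 2.83% downward.

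**Figure D1:**
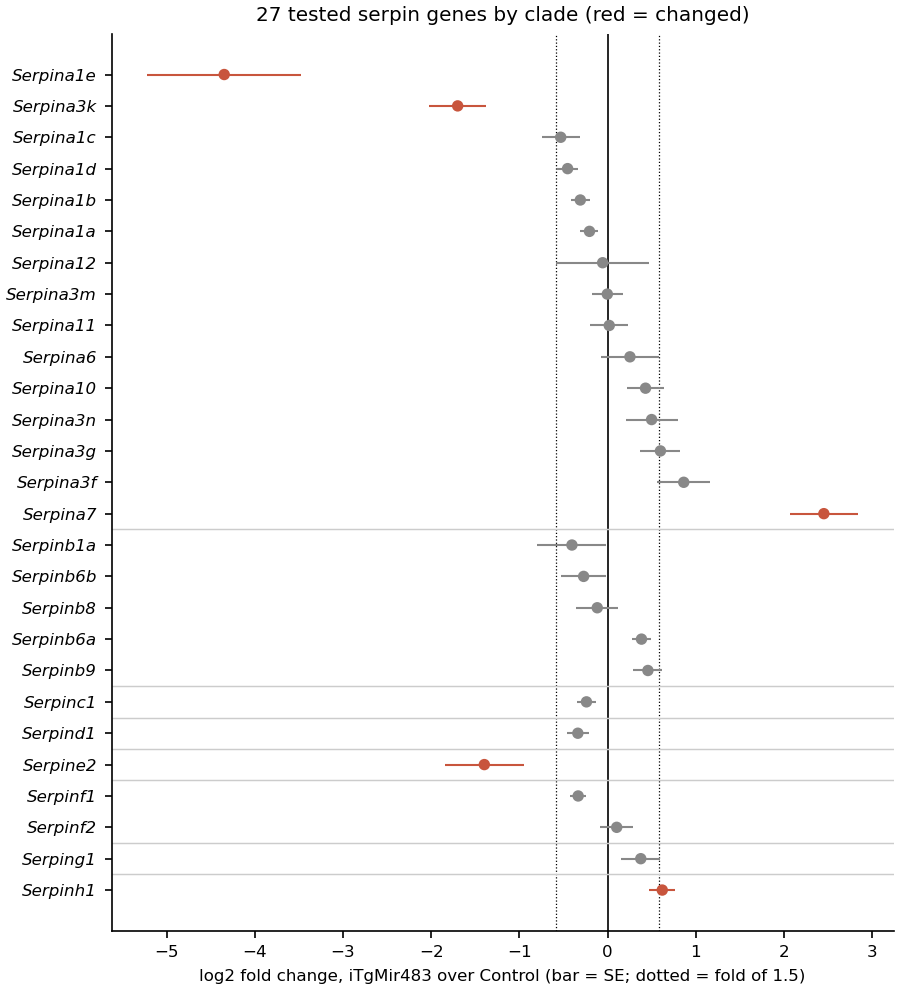
Log2 fold change of iTgMir483 over control (horizontal axis, with its standard error as bars) for 27 tested serpin genes, arranged by clade from a at the top to h at the bottom. The 5 changed genes drawn, in red, run from -4.35 for Serpina1e to 2.45 for Serpina7, and most other genes lie between the dotted lines of a 1.5-fold change.

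The largest fall was in an antitrypsin gene. Antitrypsin is the main plasma inhibitor of neutrophil elastase, and C57BL/6 mice express 5 copies, Serpina1a to Serpina1e, side by side on the minus strand of chromosome 12. The copies are known to differ mostly in the reactive centre loop, which sets the target protease. A scan of 394 windows of 60 coding bases, aligned over the 5 genes, placed the most divergent window near the 3′ end of the coding sequence, in the exon stretch that encodes this loop. In this window the genes differed at 18 of the 60 positions, against a median of 4 over all windows. The 5 windows, from GENCODE M21 transcripts on GRCm38, are shown because this is the stretch in which the copies differ most, with capitals at the positions that differ.
Serpina1a (chr12:103853756-103853815, minus strand): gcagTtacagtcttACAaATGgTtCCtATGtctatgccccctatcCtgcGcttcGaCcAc
Serpina1b (chr12:103728323-103728382, minus strand): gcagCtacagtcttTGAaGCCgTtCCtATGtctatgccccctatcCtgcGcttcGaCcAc
Serpina1c (chr12:103895093-103895152, minus strand): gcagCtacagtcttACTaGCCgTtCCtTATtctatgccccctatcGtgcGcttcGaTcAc
Serpina1d (chr12:103763761-103763820, minus strand): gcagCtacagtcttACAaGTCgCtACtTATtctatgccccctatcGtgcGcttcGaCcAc
Serpina1e (chr12:103947099-103947158, minus strand): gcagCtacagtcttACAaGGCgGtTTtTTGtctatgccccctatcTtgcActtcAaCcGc

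Elsewhere the copies differed at fewer positions. Whole coding sequences of Serpina1b, Serpina1c, Serpina1d and Serpina1e, the divergent window included, matched each other at 96.3% to 96.7% of bases. The annotated coding sequence of Serpina1a is longer, at 1308 against 1239 bases. It matched the others at 91.4% to 93.3%, with 69 gap bases counted as differences. Of all 50-base windows along the transcripts of a gene, 65.4% occurred in no other gene for Serpina1e, 70.5% for Serpina1b, 49.1% for Serpina1d, 42.4% for Serpina1a and 20.7% for Serpina1c. Reads from the remaining windows could be counted for another copy or gene, or dropped, so the values of single copies, Serpina1c above all, are uncertain.

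Serpina1e RNA in control livers ranged from 20.4 CPM through a median of 351 to 1773 CPM, and in iTgMir483 livers from 4.39 CPM through a median of 21.8 to 64.8 CPM. The control livers themselves spread widely, with replicate 1 at the top and replicate 2, at 20.4 CPM, inside the iTgMir483 range; the other 5 control livers were above every iTgMir483 liver. Serpina1e fell by 4.35 on the log2 scale (SE 0.87), about 20.3-fold, with an adjusted p of 0.0045, and the exact two-sided permutation test over the 12 livers gave p = 0.0087. Control replicate 1 set part of the size: without it the log2 fold change was -3.42, with an adjusted p of 0.0056. In the fit, Serpina1e was called changed with every library left out in turn, at values from -4.87 to -3.42.

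The other 4 antitrypsin genes were lower in iTgMir483 livers by much less, and none was called changed. Serpina1b, the most abundant copy per transcript length, held from 3993 to 4738 CPM in control livers and from 3276 to 3633 CPM in iTgMir483 livers, with no overlap. Its log2 fold change was -0.31 (SE 0.11), with an adjusted p of 0.063. Serpina1d likewise did not overlap, with 2020 to 2539 CPM against 1448 to 1884 CPM. Its log2 fold change of -0.45 (SE 0.12) had an adjusted p of 0.016 but stayed under the 1.5-fold limit. Serpina1a, at -0.20 (adjusted p = 0.18), and Serpina1c, at -0.53 (adjusted p = 0.10), overlapped between groups. For Serpina1c, control replicate 1 stood at 2870 CPM, the rest of its group at 1199 to 1735 CPM, and without that library the log2 fold change was -0.30.

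Summing the 5 copies removes the question of which copy a read came from, except for reads dropped as shared. Reads shared with a gene outside the 5, such as Gm8893 for Serpina1a and Serpina1c, also remain uncertain. The sum was 10005 ± 1567 CPM (SD, n = 6) in control and 7389 ± 515 CPM (SD, n = 6) in iTgMir483 livers, a log2 ratio of means of -0.44. The lowest control liver, at 8352 CPM, was above the highest iTgMir483 liver, at 8103 CPM. Serpina1e made up 4.68% ± 4.80 (SD, n = 6) of the sum in control livers, from 0.244% in replicate 2 to 13.8% in replicate 1. In iTgMir483 livers its share was 0.346% ± 0.292 (SD, n = 6) and never above 0.888%. Serpina1b was the main copy in every liver, with 34.1% to 49.2% of the sum. When the clade a copies were replaced by their sums in the fit, the antitrypsin sum was not called changed.

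**Figure D2:**
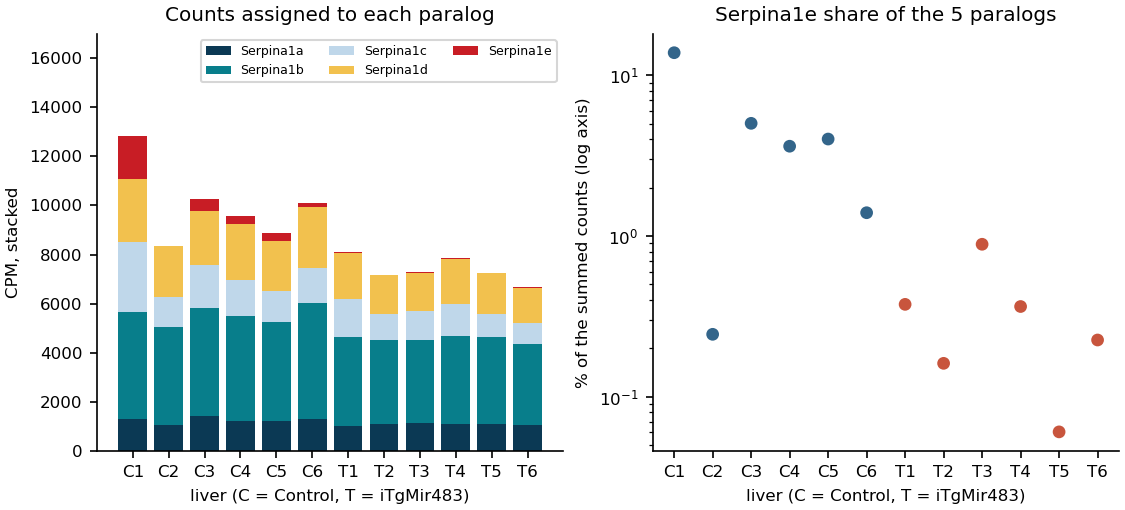
Left, CPM of Serpina1a to Serpina1e stacked for each of the 12 livers (C1 to C6, control replicates; T1 to T6, iTgMir483 replicates). Right, the percentage of that sum counted for Serpina1e, on a log axis. Serpina1e reaches 13.8% in C1 and stays at or under 0.888% in every iTgMir483 liver, whereas the heights of the stacks differ far less.

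The promoters of the 5 copies are also alike. RefSeq promoters (250 bases before to 50 after the start, GRCm38.p6) were searched on both strands for GTTAAT, 6 letters common in promoters of hepatocyte genes, which were found in 11 of the 52 serpin genes matched, or 21.2%, against 8.24% of all 27025 genes, with a gene of several promoters counted once. All 5 antitrypsin genes held the motif. These alike promoters are 5 of the 11, so the 11 genes are not independent. The others were Serpina7, Serpinb8 and, untested or without counts in these livers, Serpina3c, Serpinb3b, Serpinb3d and Serpini2. The 60 bases around the motif are shown for the most abundant antitrypsin copy and for the copy that fell, with the 6 letters in capitals.
Serpina1b (chr12:103738183-103738242, minus strand): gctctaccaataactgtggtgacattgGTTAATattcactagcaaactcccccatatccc
Serpina1e (chr12:103956943-103957002, minus strand): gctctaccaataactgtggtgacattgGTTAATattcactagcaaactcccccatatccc
Each differed from Serpina1a at 1 of the 60 positions. Over the stretch that both promoters covered, Serpina1e and Serpina1b were identical at 97.6% of bases. These are matches of letters in annotated promoters and say nothing of binding.

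The second clade a gene that fell was Serpina3k, a member of the antichymotrypsin group known as a plasma inhibitor of tissue kallikrein. Humans have a single antichymotrypsin gene, SERPINA3, and the mouse group held 10 genes in the table, of which 5 were tested. In control livers Serpina3k was the most abundant of all serpin genes per length, at 4154 CPM per kilobase of transcript against 3089 for Serpina1b, and in iTgMir483 livers it stood at 1279 against 2494. Its CPM ranged from 4800 through a median of 8340 to 14051 in control livers, and from 1180 through a median of 2825 to 3715 in iTgMir483 livers. Every iTgMir483 liver was below every control liver. Serpina3k fell by 1.70 on the log2 scale (SE 0.32), about 3.25-fold, with an adjusted p of 0.0033 and an exact two-sided permutation p of 0.0022, the smallest that 6 against 6 can give. The call held with every library left out in turn, at -1.83 to -1.50.

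The tested neighbours of Serpina3k were not called changed. Serpina3m, whose coding sequence matches that of Serpina3k at 91.1% of bases and which shares 60 exon bases with it on the same strand, had a log2 fold change of 0.00 (-0.0025, SE 0.18), with 532 ± 83.8 CPM (SD, n = 6) in control and 531 ± 158 CPM (SD, n = 6) in iTgMir483 livers. Serpina3n, the acute-phase member that inhibits cathepsin G and granzyme B, ranged from 321 to 673 CPM in control livers. In iTgMir483 livers 5 values lay between 470 and 597 CPM and replicate 4 at 1543 CPM. Its log2 fold change of 0.50 (SE 0.30) had an adjusted p of 0.26, and without that liver it was 0.11. The share of Serpina3k in the group's counts went from 88.2% ± 3.57 (SD, n = 6) to 66.6% ± 11.2 (SD, n = 6), and the summed group went from 9585 ± 3664 CPM to 3883 ± 1232 CPM without overlap, a log2 ratio of means of -1.30. In the fit on summed copies the sum of this group was called lower.

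Serpina3g, known from white blood cells as an inhibitor of lysosomal cathepsins, and its neighbour Serpina3f were low in abundance and did not pass at the full threshold. Serpina3f ranged from 2.10 to 4.62 CPM in control and from 2.40 to 11.7 CPM in iTgMir483 livers, with 5 of 6 iTgMir483 livers above every control liver. Its log2 fold change was 0.86 (SE 0.30) with an adjusted p of 0.060, and it was called changed with DESeq2, with replicate number as a block and without iTgMir483 replicate 1 (adjusted p = 0.013). Serpina3g stood at 2.29 to 3.82 CPM against 2.84 to 7.77 CPM, and its log2 fold change of 0.60 (SE 0.23) had an adjusted p of 0.080, or 0.034 without iTgMir483 replicate 1. For both genes iTgMir483 replicate 4 was the highest liver. Macrophage markers were higher in the same livers: 7 of 8 genes of a Kupffer cell and macrophage list rose, and their summed level went from 313 to 466 CPM in control livers to 487 to 1350 CPM in iTgMir483 livers, with none at 0. Of 8 neutrophil markers 3 were tested and all 3 rose, the list's sum going from 3.33 to 6.00 CPM to 7.56 to 30.3 CPM. Their part in the serpin values was not tested.

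**Figure D3:**
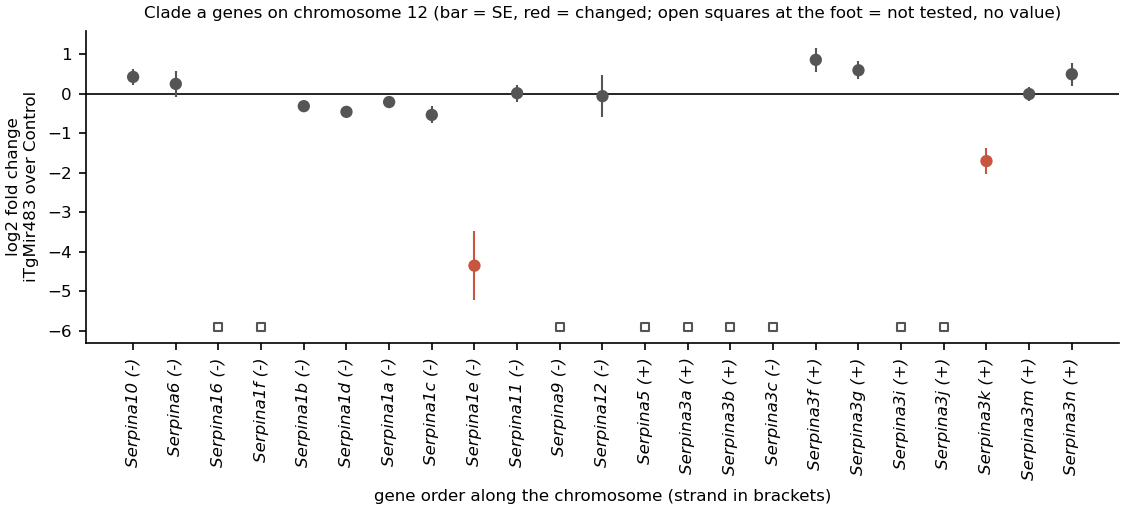
Log2 fold change of iTgMir483 over control (vertical axis, with its standard error) for the clade a genes of chromosome 12, spaced evenly in their order along the chromosome with the strand in brackets. Serpina1e and Serpina3k, in red, stand at -4.35 and -1.70 beside neighbours between -0.53 and 0.86; open squares at the foot mark genes that were not tested and have no value.

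The remaining clade a genes include hormone carriers. Serpina7, thyroxine-binding globulin, carries thyroid hormone in plasma and inhibits no protease; its reads were unique at all 50-base windows. Serpina7 stood at 6.31 to 25.4 CPM in control livers, with a median of 11.9 CPM, and at 27.9 to 127 CPM in iTgMir483 livers, with a median of 64.4. All 6 iTgMir483 livers were above all 6 control livers, although control replicate 2 and iTgMir483 replicate 4 came close. Serpina7 rose by 2.45 on the log2 scale (SE 0.39), about 5.47-fold, with an adjusted p of 0.0012 and an exact two-sided permutation p of 0.0022. It was called changed in every alternative fit, with leave-one-out values from 2.23 to 2.73. The promoter of Serpina7 held GTTAAT at 1 place, which lies at -74 or -57 depending on which of 2 annotated starts is used.

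Serpina6, corticosteroid-binding globulin, ranged from 100 to 288 CPM in control and from 99.9 to 368 CPM in iTgMir483 livers, and its log2 fold change of 0.25 (SE 0.33) did not pass. Serpina10, the protein Z-dependent inhibitor of factor Xa, stood at 116 to 162 CPM against 118 to 315 CPM, with iTgMir483 replicate 4 again the highest, at a log2 fold change of 0.43 (adjusted p = 0.17) that was 0.18 without that liver. Serpina12, the adipokine vaspin, at 1.04 to 9.20 CPM against 1.24 to 13.0 CPM, and Serpina11, at 14.9 to 34.4 CPM against 16.2 to 32.8 CPM, had log2 fold changes of -0.055 (SE 0.53) and 0.019 (SE 0.22). These 4 genes lie outside the rule for named genes and are given so that every tested member is accounted for.

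Serpine2, protease nexin 1, an inhibitor of thrombin and plasminogen activators at the cell surface, was near 1 CPM in most livers. Control livers held 7.15 CPM in replicate 1 and 1.10 to 2.21 CPM in the other 5, and iTgMir483 livers 0.564 to 1.38 CPM, with 5 of 6 below every control liver. The log2 fold change was -1.40 (SE 0.45) with an adjusted p of 0.042. The call held in 9 of 21 alternatives, RLE scaling and DESeq2 among them, and was lost in 12. Without control replicate 1 the value was -0.74 with an adjusted p of 0.063, 7 other libraries also ended the call when left out, with adjusted p up to 0.083, and it was lost with the replicate block at 0.060. Serpine3 did not have the counts to be tested.

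**Figure D4:**
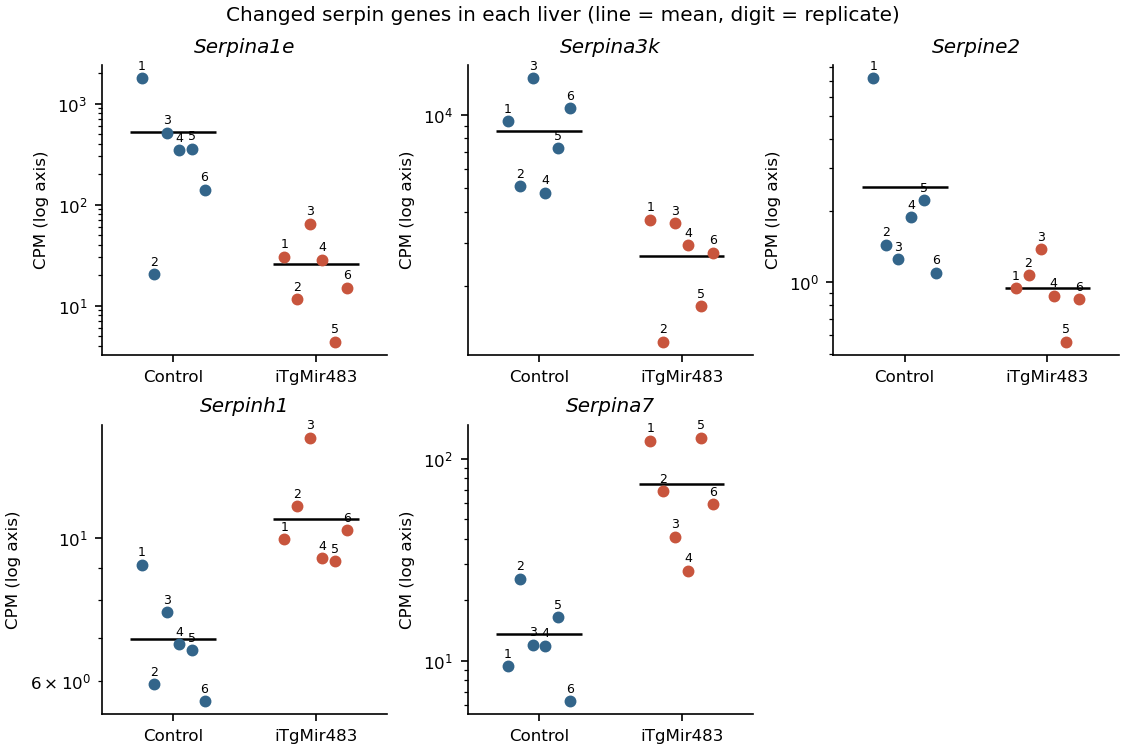
CPM (log axis, scaled separately per panel) of 5 changed serpin genes in each of the 12 livers, with the replicate number over each point and a line at the group mean. Serpina3k, Serpina7 and Serpinh1 separate the groups without overlap; control replicate 2 of Serpina1e and iTgMir483 replicate 3 of Serpine2 lie within the range of the other group.

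Serpinh1, the only member of clade h, encodes HSP47, a collagen chaperone of the endoplasmic reticulum that inhibits no protease. It ranged from 5.58 through a median of 6.77 to 9.10 CPM in control livers and from 9.21 through a median of 10.1 to 14.3 CPM in iTgMir483 livers, so that the groups just failed to touch. Serpinh1 rose by 0.62 on the log2 scale (SE 0.15), about 1.54-fold, with an adjusted p of 0.0098 and an exact two-sided permutation p of 0.0022. The fold sat at the limit of the rule: it fell below 1.5 without control replicate 2 (0.57), control replicate 6 (0.56) or iTgMir483 replicate 3 (0.52), with adjusted p still between 0.023 and 0.026. Of 9 stellate cell and fibroblast markers, the cells that make most liver collagen, 0 changed in edgeR and 1, Col3a1, in DESeq2 and in limma-voom; 3 had an unadjusted p under 0.05, and Rgs5 had an adjusted p of 0.0031 at 0.54 on the log2 scale. Their summed level was 364 to 482 CPM in control and 433 to 536 CPM in iTgMir483 livers. Col1a1 and Col3a1, collagen chains that HSP47 folds, had log2 fold changes of 0.69 (adjusted p = 0.19) and 0.72 (adjusted p = 0.076). In bulk liver, more RNA per cell and more cells of a type cannot be told apart.

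The plasma serpins of coagulation, fibrinolysis and complement moved little. Serpinc1, antithrombin, stood at 2126 to 2399 CPM in control livers, the tightest spread of any tested serpin gene, and at 1733 to 2276 CPM in iTgMir483 livers, of which 5 were below every control. Its log2 fold change was -0.24 (SE 0.11) with an adjusted p of 0.14. Serpind1, heparin cofactor II, was 537 ± 71.3 CPM (SD, n = 6) against 425 ± 65.3 CPM (SD, n = 6), at -0.34 with an adjusted p of 0.076. Serpinf2, the inhibitor of plasmin, ranged from 403 to 798 CPM in control and from 520 to 985 CPM in iTgMir483 livers, at 0.10 (SE 0.19). These 3 genes did not pass at the full threshold.

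Serpinf1, pigment epithelium-derived factor, an anti-angiogenic protein that inhibits no protease, stood at 637 to 745 CPM in control and 522 to 626 CPM in iTgMir483 livers. The groups did not overlap, and the log2 fold change of -0.33 (SE 0.093) had an adjusted p of 0.023, under the 1.5-fold limit. Serping1, the inhibitor of complement C1 and plasma kallikrein, was 499 to 722 CPM in control livers. In iTgMir483 livers it was 568 to 804 CPM in 5 animals and 1586 CPM in replicate 4, so that its log2 fold change of 0.38 (SE 0.22, adjusted p = 0.25) became 0.084 without that liver. Replicate 4 was the highest iTgMir483 liver for 12 of the 28 tested serpin genes and also had the lowest albumin level, 35996 CPM, and the highest summed macrophage level, 1350 CPM. Their part in its serpin values was not tested.

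Clade b serpins stay inside cells, where many guard against the proteases of granules and lysosomes. Of the 26 genes only 5 were tested and 0 changed in edgeR, DESeq2 or limma-voom. In edgeR 2 had an unadjusted p under 0.05 and 1, Serpinb6a, passed the adjusted p alone. Serpinb6a, an inhibitor of cathepsin G, ranged from 15.0 to 19.4 CPM in control and from 18.5 to 25.4 CPM in iTgMir483 livers, which is 0.38 on the log2 scale (SE 0.10) with an adjusted p of 0.019. Serpinb9, the granzyme B inhibitor of lymphocytes and other cells, was at 4.66 to 7.77 CPM against 6.01 to 11.5 CPM, at 0.46 (adjusted p = 0.065). Serpinb1a, the inhibitor of neutrophil elastase in myeloid cells and hepatocytes, showed 1 liver apart. Its control values were 8.02 to 11.8 CPM, and the iTgMir483 values were 19.9 CPM in replicate 1 and 2.79 to 9.06 CPM in the others, 4 of them below every control. With all livers its log2 fold change was -0.40 (adjusted p = 0.50), and without iTgMir483 replicate 1 it was -0.95 and called lower (adjusted p = 0.026). Serpinb6b, at -0.27 (adjusted p = 0.49), and Serpinb8, at -0.12 (adjusted p = 0.77), did not pass, and all 5 of these genes except Serpinb1a lie outside the rule for named genes.

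**Figure D5:**
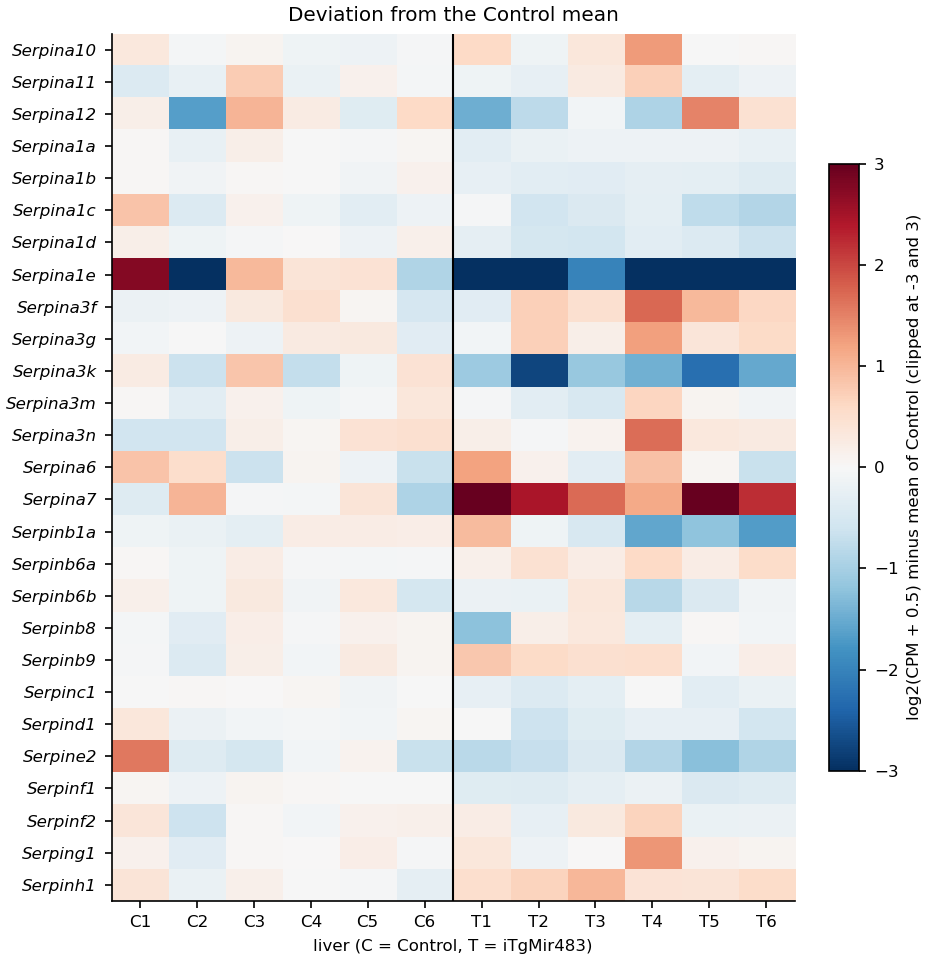
Log2(CPM + 0.5) of 27 tested serpin genes minus the gene's mean over control livers, for the 12 livers (C1 to C6, control; T1 to T6, iTgMir483), with colours clipped at -3 and 3. Serpina1e and Serpina3k are blue and Serpina7 red in T1 to T6, while Serpina3n and Serping1 stand out in T4 alone and Serpine2 in C1 alone.

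The other 33 serpin genes were close to silent in these livers. Of these, 16 had no count in any library. The other 17 had at most 74 counts over the 12 libraries and at most 22 in a library, both for Serpina3i, and 10 of them never passed 3 counts. Serpinb2, plasminogen activator inhibitor 2, had 0 counts in all 6 controls and 3 counts in each of 3 iTgMir483 livers, which is at the floor of 3 counts and gives no fold. At this depth a difference in these genes was not detectable. Together the serpin genes took 1.85% to 2.89% of all counts in control livers and 1.51% to 2.01% in iTgMir483 livers, and the ranges overlapped.

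Direct matches to the microRNA were searched in the tested serpin genes. The mature products of Mir483 (RefSeq) are shown because the bases in capitals, the seed at positions 2 to 8, are what pairs with target RNA.
mmu-miR-483-3p: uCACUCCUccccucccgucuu
mmu-miR-483-5p: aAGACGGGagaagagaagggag
A 7-base match to the seed of miR-483-3p was present in the longest 3′ UTR of 1 of the 28 tested serpin genes, Serpinb8, against 12.6% of 12092 tested genes with a UTR, and a match to miR-483-5p in 0, against 3.26%. With 28 genes these counts are small. Their difference from the shares was not tested, and the length of the UTRs was not taken into account. The Serpinb8 site (chr1:107608493-107608499 on GRCm38, plus strand, capitals) is:
Serpinb8: gggacaggtgAGGAGTGagggatggga
None of the 6 changed genes held such a match in its longest annotated 3′ UTR. Serpinb8 RNA was 3.63 ± 0.51 CPM (SD, n = 6) in control and 3.33 ± 1.19 CPM (SD, n = 6) in iTgMir483 livers.

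Other motifs were searched in the same promoters, on both strands. TTCNNNGAA, the core of sites for the growth hormone effector STAT5, was in 8 of the 52 serpin genes (15.4%, against 9.55% of all genes), and GAANNTTC, part of the heat shock element, in 6 of 52 (11.5%, against 9.04%). The tested genes with TTCNNNGAA were Serpina11, Serpina3f, Serpina3g and Serpinb6a. All genes with GAANNTTC were untested or without counts in these livers. No changed serpin gene was among the holders of either motif. The promoter of Serpinh1, a known heat shock gene, held neither of the 2 nor GTTAAT within this window.

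Partners of the serpins were read from 4 lists, which were chosen with earlier results of these data known. Over all genes tested 8.41% rose and 2.73% fell, and the list counts were not tested against these shares. Of 28 tested target proteases and their receptors 4 rose and 0 fell in edgeR, with a median log2 fold change of -0.037; 3 that were lower had an unadjusted p under 0.05, and DESeq2 called 1 of them lower, the coagulation factor gene F11, and limma-voom 0. The risers were Prss8 and St14, the membrane proteases prostasin and matriptase (1.73, adjusted p = 0.0016, and 1.56, adjusted p = 0.0014), Plau, the plasminogen activator urokinase (0.71, adjusted p = 0.040), and Ctss, a lysosomal cysteine protease of macrophages (0.67, adjusted p = 0.039). Thrombin (F2), at a log2 fold change of -0.046, and plasminogen (Plg), at -0.11, did not pass. With the adjusted p alone 7 genes of the list passed. The added genes were Klkb1, plasma kallikrein, lower at -0.36 (adjusted p = 0.035), and Ctsb and Hgfac, higher at 0.49 (adjusted p = 0.018) and 0.42 (adjusted p = 0.024). They moved by less than 1.5-fold. Levels of Prss8 and St14 were low, 1.70 and 1.11 CPM in control livers. Of 5 tested cholangiocyte markers 3 rose as well, the list's sum going from 21.0 to 46.1 CPM to 60.8 to 89.4 CPM. Most of that sum was Spp1, with means of 25.6 CPM in control and 63.6 CPM in iTgMir483 livers. Krt19 (0.099, adjusted p = 0.83) and Sox9 (0.26, adjusted p = 0.43) did not pass. The part of these markers in the Prss8 and St14 values was not tested.

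Of 26 tested genes in a list of inhibitors without the Serpin symbol 3 rose and 1 fell, with a median of 0.15. The list included Agt, a protein with the serpin fold, which did not pass (-0.24, adjusted p = 0.20). Over all genes tested 8.41% rose and 2.73% fell. Mug1, a murinoglobulin that traps proteases in plasma, fell by 1.22 on the log2 scale (adjusted p = 0.0073), from 3089 ± 1102 CPM to 1330 ± 470 CPM (SD, n = 6 each). Spink1, Slpi and Spint1, inhibitors of epithelia with a Kazal, a whey acidic protein and a Kunitz domain, rose by 4.26, 2.47 and 1.16, from control means under 1 CPM, and for Spink1 4 of the 6 control livers had 0 counts. Among 21 tested clearance receptors, matrix partners and secretory chaperones 2 rose, Vldlr, a receptor that takes up serpin complexes (1.24, adjusted p = 0.014), and Hspg2, perlecan (0.63, adjusted p = 0.0093). In edgeR, DESeq2 and limma-voom 0 of these fell, 1 had an unadjusted p under 0.05 in that direction, and the median was 0.010.

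Of 22 tested regulators of liver serpin genes 1 rose and 1 fell, with a median of -0.030, where 8.41% and 2.73% of all genes did. Tgfb1, a cytokine of wound healing and fibrosis, rose by 0.88 (adjusted p = 0.0055), from 7.67 ± 1.44 CPM to 14.1 ± 4.19 CPM (SD, n = 6 each). The hepatocyte factors Hnf4a (-0.37, adjusted p = 0.15) and Cebpa (-0.25, adjusted p = 0.28) did not pass. Of 6 hepatocyte markers 1 fell, Cps1 of the urea cycle. Their summed level was 118004 to 167361 CPM in control and 59472 to 128547 CPM in iTgMir483 livers. Most of this sum was Alb, which did not pass (-0.56, adjusted p = 0.16). Apoa1 (0.19), Ttr (-0.19) and Tat (-0.70) did not pass either. The part of the hepatocyte markers in the lower antitrypsin values was not tested.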

How the data were processed

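Liver RNA of 6 iTgMir483 and 6 control mice was measured by poly(A) RNA-seq, with groups taken from sample titles. Per the study's methods, stranded libraries were sequenced as paired 50-base reads and aligned with STAR to GRCm38. The authors deposited raw counts per Ensembl gene; which strand column was kept, and how reads shared by paralogs were treated, is not given in the sources used here. Symbols, types and positions came from GENCODE M21 (GRCm38), another release of the same build; 55141 of 55401 identifiers had a symbol.

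Serpin members and the gene lists were chosen with earlier results of these data known. Counts were filtered with filterByExpr, scaled by TMM and fitted in edgeR 4.0.16 (R 4.3.3) with the quasi-likelihood F-test over all 13205 genes kept. Standard errors are the log2 fold change over the root of F. CPM use TMM library sizes, and CPM per kilobase the longest coding transcript. Single genes also had an exact two-sided permutation test of mean log2(CPM + 0.5) over the 924 assignments of the livers. Library totals of 12244123 to 30431286 limit the precision for genes near 1 CPM, and floors of 3 counts cover counting error only. No pair of libraries agreed within sampling noise (smallest chi-square per gene 15.7).

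Genes named by rule were the changed members, the 12 most abundant, those whose groups did not overlap, those whose call differed in the replicate block, DESeq2, limma-voom or leave-one-out fits, and those of small clades; the others tested are given for completeness. Some results are not reported here. Alternatives were RLE scaling, other count filters, DESeq2 1.42.0, limma-voom (limma 3.58.1), a replicate block, each library left out, both replicate 1 libraries left out, other fold rules and summed paralogs. The planned comparison of proteins was replaced by a comparison of coding sequences. The fit was tested on simulated data.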

Additional observations from a re-analysis of the deposited data

Results flagged for a closer look

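Among 60 groups of 6 livers looked at (28 tested serpin genes and the Serpina1 and Serpina3 sums, in both groups), 7 held a liver far from the others. Its gap to the nearest neighbour took more of the group's range in CPM than Dixon's 95% limit allows. That limit assumes normally distributed values, for which chance alone gives about 3. All 7 values stood high, and skew of the CPM was not taken into account. Control replicate 1 stood high for Serpina1e (gap of 0.717 of the range), Serpina1c (0.679) and Serpine2 (0.816), and Mup20 was also highest in that library. The liver of iTgMir483 replicate 4 stood high for Serpina3n (0.882) and Serping1 (0.768), both acute-phase genes, and that library had the highest macrophage marker sum. The other liver values were Serpinb1a in iTgMir483 replicate 1 (0.633), a gene called lower only without that liver or without both replicate 1 libraries, and Serpina11 in control replicate 3 (0.650), at 34.4 CPM against 14.9 to 21.7 CPM. The cause of each was not tested.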

How the results depend on the processing

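Serpina1e, Serpina3k and Serpina7 were called changed, in 1 direction each, in every alternative fit on single genes. The number of changed serpin genes stayed between 4 (limma-voom, or a test against a fold of 1.5) and 9 (no fold limit), and was 5 to 8 with 1 library left out. The share changed over all genes also moved with the setting. It was 10.7% in limma-voom, 1.71% in the test against a fold of 1.5 and 18.6% with no fold limit. Without a count filter it was 5.83%, with at least 10 counts in every library 10.2%, and with 1 library left out 8.93% to 12.4%. Serpin genes called higher were 2 to 5 when a library was left out, 5 without iTgMir483 replicate 1, and those called lower 2 to 3, or 5 with no fold limit. Over all genes, the deviations of same-numbered livers correlated at 0.49 for replicate 1. For replicates 2 to 6 they correlated at 0.015, 0.048, 0.023, 0.19 and 0.053. Replicate numbers thus did not pair the livers in general, but both replicate 1 livers deviated in part alike. A replicate block gave 6 changed serpin genes (11.6% of all genes changed), with Serpina3f added and Serpine2 lost. Changed target proteases were 7 without a count filter, 7 with no fold limit, 2 in a test against a fold of 1.5, and 2 to 5 by leave-one-out (2 without control replicate 1, control replicate 6 or iTgMir483 replicate 2). Other inhibitors were 1 with at least 10 counts in every library or a test against a fold of 1.5, clearance genes 0 in that test and 1 to 2 by leave-one-out (1 without iTgMir483 replicate 3), and regulators 1 with at least 10 counts, 1 in that test and 2 to 4 by leave-one-out (4 without iTgMir483 replicate 4). The causes were not tested.

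Direction changed only for genes that were not called: Serpina11 (-0.00079 without a filter, -0.022 without both replicate 1 libraries, -0.15 to 0.22 by leave-one-out), Serpina12 (0.14 without both replicate 1 libraries, -0.67 to 0.20), Serpina3m (0.0076 with at least 10 counts, 0.0082 without both replicate 1 libraries, -0.17 to 0.079), Serpinb8 (0.039 without both replicate 1 libraries, -0.24 to 0.051) and Serpinf2 (-0.032 to 0.18 by leave-one-out). Genes near 1 CPM, such as Serpine2, are limited by depth.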
